A study of Sus scrofa with 10 samples.

Results

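Marker genes of hepatic stellate cells and myofibroblasts were followed through 10 RNA sequencing libraries of pig liver (Sus scrofa). LRAT and RGS5 were taken as markers of quiescent stellate cells, and DES, VIM, ACTA2, TAGLN, PDGFRA, PDGFRB, THY1 and DCN as markers of activated stellate cells, myofibroblasts and portal fibroblasts. They were chosen by gene symbol, and are 10 of the 31905 genes of the deposited table, each with a single row. All 10 passed the filter on low values, at least 1 FPKM in at least 2 libraries, as did 12180 genes in all. Every level is given in FPKM, a unit corrected for gene length and for the number of fragments in a library.

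The study concerned liver failure after hepatectomy, the surgical removal of part of the liver, and its treatment with a bioartificial liver, in which blood is led out of the animal and past liver cells. The hiHepD8 group (2 libraries, day 8) and the hiHepD4 group (1 library, day 4) were livers of pigs treated with a device that held human induced hepatocytes, hepatocyte-like cells made by converting another human cell type. EmptyBAL (2 libraries, day 3) had a device without cells, NoBAL (2 libraries, day 2) had liver failure and no device, and Control (3 libraries, day 0) was normal liver. All were labelled WT, and the labels give neither the age nor the number of the animals. Each group was taken on a day of its own, so treatment and time cannot be told apart. The labels name hepatocytes as the cell type but describe RNA from livers, and markers of stellate, endothelial and immune cells were all detected, so the values are those of tissue. In such bulk RNA, fewer cells of a type and less RNA per cell cannot be told apart.

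Stellate cells lie between the sinusoidal endothelium and the hepatocytes and store vitamin A as retinyl esters. After injury they are known to lose these stores, to respond to PDGF and TGF-beta, and to become contractile cells that lay down matrix. Portal fibroblasts, vascular smooth muscle cells and pericytes carry many of the same genes, so none of the 10 markers belongs to stellate cells alone.

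Replicates differed in how alike they were. Of the genes averaging 10 FPKM or more, 0.22% differed 2-fold between the hiHepD8 libraries, 31.27% between the EmptyBAL libraries, 13.86% between the NoBAL libraries and 0.15% to 0.26% between Control libraries. EmptyBAL replicate 1 was above replicate 2 in 9 of the 10 markers, so both levels are given for each marker. For single genes of the related lists below, EmptyBAL is given as means or changes, though its replicates were often unlike there too. Matrix genes summed to 3476 and 1119 FPKM in replicates 1 and 2, and pericyte genes to 90.8 and 28.3. Portal fibroblast genes summed to 890 and 777, and vitamin A genes to 685 and 3178. The labels do not say that libraries of a group came from separate animals, and p-values then measure only the spread between these libraries, which may be technical. Leaving out 1 EmptyBAL, NoBAL or hiHepD8 library left a single one to stand for that group, with no spread of its own. Such a fit took its spread from the other groups, and without 1 EmptyBAL library the widest spread no longer counted. A call gained in such a fit was therefore not taken as a result. Averaging groups to 1 sample, tried next, left few of all genes called in any comparison. A marker not called there therefore says little about that marker, and the counts of genes are given in the closing section. When the Control libraries and the hiHepD8 libraries were each averaged to 1 sample, limma called 0 of the 10 markers in any of 6 comparisons. At an unadjusted p under 0.05 the markers then numbered 3 for hiHepD8 against Control, 3 for hiHepD8 against NoBAL, 0 for hiHepD8 against EmptyBAL, 2 for EmptyBAL against Control, 5 for EmptyBAL against NoBAL and 0 for NoBAL against Control.

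**Figure D1:**
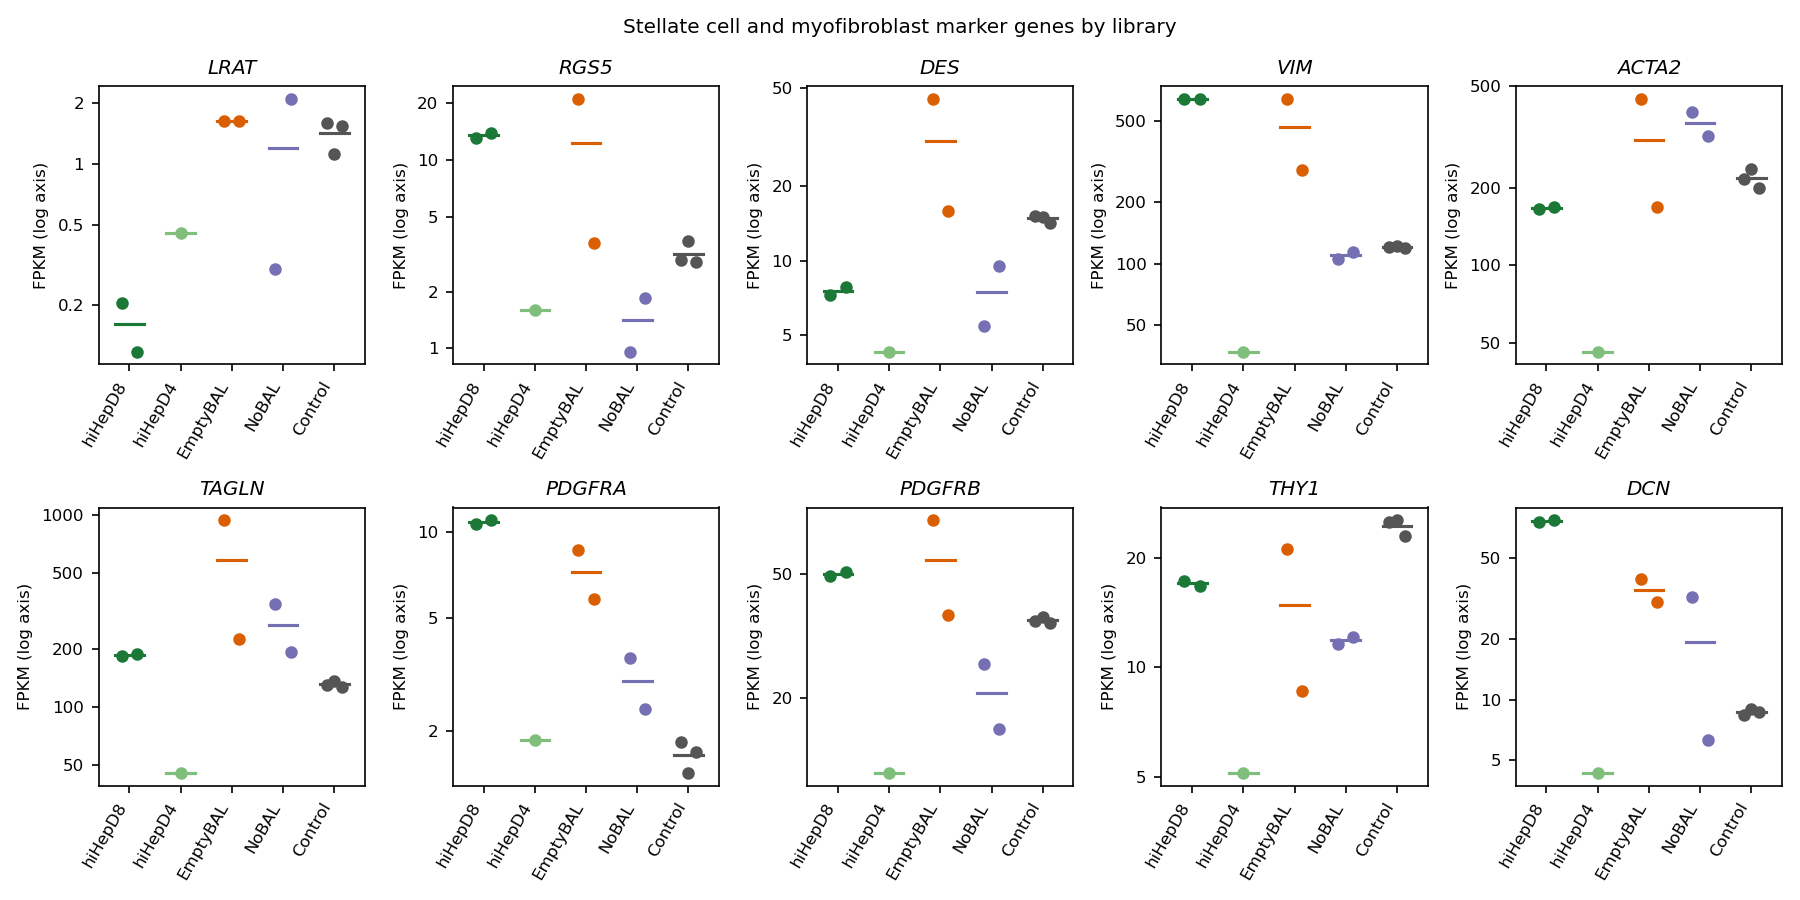
FPKM (log axes) of each of the 10 markers in every library, with groups from left to right as hiHepD8, hiHepD4, EmptyBAL, NoBAL and Control; points are libraries and bars are group means. VIM, PDGFRA and DCN are high in both hiHepD8 libraries, LRAT is lowest there, and the hiHepD4 library is the lowest of all 10 in 7 markers.

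LRAT and RGS5, the quiescent pair, went opposite ways in hiHepD8. LRAT (chromosome 8, 74412226 to 74428713, Sscrofa11.1) encodes lecithin retinol acyltransferase, which makes retinyl esters. It had 0.205 and 0.118 FPKM in hiHepD8, 0.457 in hiHepD4, 1.62 and 1.63 in EmptyBAL, 0.300 and 2.09 in NoBAL, and 1.58, 1.12 and 1.53 in Control. Both hiHepD8 libraries lay below all other libraries, and the NoBAL libraries fell on either side of Control. LRAT fell in hiHepD8 against Control (log2 change of FPKM + 1 of -1.05 ± 0.32 SE, limma adjusted p = 0.039) and against EmptyBAL (-1.17 ± 0.35 SE, adjusted p = 0.0297). The added 1 compresses changes at such levels: in plain FPKM the hiHepD8 mean of 0.162 was 0.115 of the Control mean of 1.41. The call against Control was lost without any 1 Control or hiHepD8 library (adjusted p = 0.0708 to 0.181), and that against EmptyBAL without Control replicate 3 or any 1 EmptyBAL or hiHepD8 library (0.0506 to 0.128). Both were lost without the filter on low values (0.0765 and 0.0645), and the first with every library rescaled to the same summed FPKM (0.0952). In NoBAL the direction turned on the replicate, with -0.88 against Control without replicate 2 and 0.365 without replicate 1. Without NoBAL replicate 1 the change of LRAT in hiHepD8 against NoBAL was -1.41, and without replicate 2 that in EmptyBAL against NoBAL was 1.01.

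RGS5 (chromosome 4, 87286953 to 87340816) encodes a regulator of G protein signalling and is known as a marker of pericytes as well as of quiescent stellate cells. Its levels were 13.0 and 13.9 FPKM in hiHepD8, 1.61 in hiHepD4, 21.1 and 3.6 in EmptyBAL, 0.962 and 1.85 in NoBAL, and 2.94, 3.69 and 2.88 in Control. The hiHepD8 libraries lay above all others but EmptyBAL replicate 1, while EmptyBAL replicate 2 lay within Control. RGS5 rose in hiHepD8 against Control (1.80 ± 0.56 SE, limma adjusted p = 0.0421) and against NoBAL (2.61 ± 0.61 SE, 0.00988), and in EmptyBAL against NoBAL (2.09 ± 0.61 SE, 0.0341). The call against Control was lost without any 1 Control, NoBAL or hiHepD8 library (adjusted p = 0.0602 to 0.179), and that of hiHepD8 against NoBAL without NoBAL replicate 1 or hiHepD8 replicate 2 (0.0585 and 0.0535). The EmptyBAL call was lost without any 1 library of the other groups (0.0591 to 0.127), and its size was 0.96 without EmptyBAL replicate 1 and 3.23 without replicate 2. Without the filter on low values the calls of hiHepD8 against Control (0.0871) and of EmptyBAL against NoBAL (0.0778) were lost. With rescaled libraries RGS5 was called higher in EmptyBAL than in Control (2.06, adjusted p = 0.0155). Relative to the median of all genes that change was 1.408, beside 1.305 on the deposited scale. RGS5 was 63.5 and 118 times LRAT in the hiHepD8 libraries, 3.52 times in hiHepD4, 13.1 and 2.22 times in EmptyBAL, 3.21 and 0.885 times in NoBAL, and 1.86, 3.30 and 1.88 times in Control. The quiescent pair therefore did not move as a unit.

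DES (chromosome 15, 121428539 to 121435426) encodes desmin, the intermediate filament of muscle and of stellate cells. Desmin transcripts stood at 7.27 and 7.87 FPKM in hiHepD8, 4.30 in hiHepD4, 45.3 and 15.9 in EmptyBAL, 5.47 and 9.55 in NoBAL, and 15.2, 15.1 and 14.2 in Control. Levels in hiHepD8, hiHepD4 and NoBAL were all below Control, and those in EmptyBAL above it. DES was lower in hiHepD8 than in EmptyBAL (-1.71 ± 0.43 SE, limma adjusted p = 0.0167) and higher in EmptyBAL than in NoBAL (1.76 ± 0.43 SE, 0.0199). Without EmptyBAL replicate 1 these changes were -0.98 and 1.04, both still called. The first was lost without either hiHepD8 library (0.0861 and 0.0742) and the second without NoBAL replicate 1 (0.0844). Against Control, the changes of -0.89 in hiHepD8 and -0.94 in NoBAL did not pass (limma adjusted p = 0.126 and 0.0827). The change of 0.82 in EmptyBAL (0.114) was 1.54 without EmptyBAL replicate 2, and was called with rescaled libraries (1.63, 0.0128). Relative to the median of all genes it was 0.98 when rescaled, beside 0.85 on the deposited scale.

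VIM (chromosome 10, 43516441 to 43526172) encodes vimentin, the intermediate filament of mesenchymal, endothelial and immune cells. It was at 640.4 and 640.8 FPKM in hiHepD8, 37.1 in hiHepD4, 640.4 and 285.7 in EmptyBAL, 105.5 and 113.4 in NoBAL, and 120.7, 121.3 and 119.7 in Control. No hiHepD8 or EmptyBAL library overlapped NoBAL or Control. By abundance VIM ranked 110 in both hiHepD8 libraries and 705 to 712 in Control. It rose in hiHepD8 against Control (2.40 ± 0.32 SE, limma adjusted p = 0.00114) and NoBAL (2.54 ± 0.35 SE, 0.000916), and in EmptyBAL against Control (1.82 ± 0.32 SE, 0.00218) and NoBAL (1.96 ± 0.35 SE, 0.00755). All 4 calls held without each single library, with a highest adjusted p of 0.0242. In NoBAL against Control the change was -0.14 ± 0.32 SE (adjusted p = 0.733), and 0.22 with every library rescaled to the same summed FPKM. Between hiHepD8 and EmptyBAL the change of 0.58 did not pass (limma adjusted p = 0.217), and it was 1.16 without EmptyBAL replicate 1.

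ACTA2 and TAGLN, the contractile markers, were not called in hiHepD8 against any group on the deposited scale. ACTA2 (chromosome 14, 100868145 to 100886732) encodes smooth muscle alpha-actin, the usual marker of myofibroblasts. Actin transcripts measured 166 and 169 FPKM in hiHepD8, 46.1 in hiHepD4, 447 and 169 in EmptyBAL, 397 and 319 in NoBAL, and 218, 238 and 201 in Control. The NoBAL libraries lay above Control, the hiHepD8 libraries below it, and the EmptyBAL libraries on either side. No comparison passed on the deposited scale: the changes against Control were -0.38 ± 0.38 SE in hiHepD8 (limma adjusted p = 0.48), 0.33 ± 0.38 SE in EmptyBAL (0.477) and 0.70 ± 0.38 SE in NoBAL (0.156). With every library rescaled to the same summed FPKM the hiHepD8 value was 0.19, or -0.27 relative to the median of all genes. ACTA2 was then called higher than Control in EmptyBAL (1.16, adjusted p = 0.0162) and in NoBAL (1.06, 0.03). Relative to that median the EmptyBAL and NoBAL changes were 0.51 and 0.73, beside 0.36 and 0.66 on the deposited scale. EmptyBAL replicates set the spread, and with both kept the change in hiHepD8 against NoBAL was -1.08 on the deposited scale (limma adjusted p = 0.0619). Without EmptyBAL replicate 2 the change was 1.03 in EmptyBAL against Control and -1.41 in hiHepD8 against EmptyBAL. Without replicate 1 the change in EmptyBAL against NoBAL was -1.07. In these fits 1 library stood for EmptyBAL.

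TAGLN (chromosome 9, 44561756 to 44567385) encodes transgelin, an actin-binding protein of smooth muscle and myofibroblasts. Values were 185 and 189 FPKM in hiHepD8, 45.1 in hiHepD4, 944 and 226 in EmptyBAL, 343 and 194 in NoBAL, and 130, 137 and 127 in Control. Every library of hiHepD8, EmptyBAL and NoBAL was above every Control library, and hiHepD4 was below them all. TAGLN rose in EmptyBAL against Control (1.81 ± 0.54 SE, limma adjusted p = 0.0235). This call was lost without any 1 Control library or without EmptyBAL replicate 1 (0.0567 to 0.0624), where the change was 0.78, and without the filter on low values (0.0527), and without EmptyBAL replicate 2 it was 2.84. In NoBAL the change against Control was 0.97 ± 0.54 SE (adjusted p = 0.173). With every library rescaled to the same summed FPKM it was called, at 1.33 (0.0434), as was a lower TAGLN in hiHepD8 than in EmptyBAL (-1.56, 0.041). Relative to the median of all genes these rescaled changes were 0.998 and -1.404, beside 0.929 and -1.354 on the deposited scale. In hiHepD8 against Control the change on the deposited scale was 0.50 ± 0.54 SE (0.517). Without EmptyBAL replicate 2, which left 1 library for EmptyBAL, the change was -2.33 in hiHepD8 against EmptyBAL and 1.87 in EmptyBAL against NoBAL.

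PDGFRA and PDGFRB, the receptors for platelet-derived growth factors, behaved differently. PDGFRA (chromosome 8, 40966568 to 41021440) is known in liver from portal fibroblasts and stellate cells. It had 10.67 and 11.01 FPKM in hiHepD8, 1.86 in hiHepD4, 8.63 and 5.85 in EmptyBAL, 3.61 and 2.40 in NoBAL, and 1.84, 1.43 and 1.69 in Control. The groups hiHepD8, EmptyBAL, NoBAL and Control stood in that order from high to low with no overlap, and hiHepD4 lay just above Control. PDGFRA rose against Control in hiHepD8 (2.16 ± 0.20 SE, limma adjusted p = 0.000233), in EmptyBAL (1.62 ± 0.20 SE, 0.000427) and in NoBAL (0.58 ± 0.20 SE, 0.0429). It also rose against NoBAL in hiHepD8 (1.58 ± 0.22 SE, 0.000961) and in EmptyBAL (1.04 ± 0.22 SE, 0.0123). The NoBAL call against Control was lost without any 1 Control or hiHepD8 library or without NoBAL replicate 1 (0.0741 to 0.219), where the change was 0.36, and without the filter on low values (0.081), while the other 4 held without each single library. Between hiHepD8 and EmptyBAL the change of 0.54 did not pass (limma adjusted p = 0.0827), and it was 0.79 without EmptyBAL replicate 1.

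PDGFRB (chromosome 2, 151155753 to 151192818) is the receptor through which PDGF is known to drive stellate cell division, and it marks stellate cells and pericytes. Levels were 49.2 and 50.8 FPKM in hiHepD8, 11.6 in hiHepD4, 74.0 and 36.8 in EmptyBAL, 25.8 and 15.9 in NoBAL, and 35.3, 36.5 and 34.7 in Control. The hiHepD8 and EmptyBAL libraries lay above Control, EmptyBAL replicate 2 only just, and the NoBAL libraries below it. It was higher than in NoBAL both in hiHepD8 (1.26 ± 0.34 SE, limma adjusted p = 0.0173) and in EmptyBAL (1.32 ± 0.34 SE, 0.0224). The first call was lost without NoBAL replicate 2 (0.93, adjusted p = 0.09) or either hiHepD8 library (0.077 and 0.0838), and the second without NoBAL replicate 2 (0.99, adjusted p = 0.0979), while without EmptyBAL replicate 1 it was 0.83. No change against Control passed on the deposited scale: 0.48 ± 0.31 SE in hiHepD8 (0.271), 0.55 ± 0.31 SE in EmptyBAL (0.169) and -0.78 ± 0.31 SE in NoBAL (0.0689). The NoBAL change was -1.11 without NoBAL replicate 1, and the EmptyBAL change was 1.04 without EmptyBAL replicate 2. With every library rescaled to the same summed FPKM, PDGFRB was called higher than Control in hiHepD8 (1.05, adjusted p = 0.0125) and in EmptyBAL (1.36, 0.00196). Relative to the median of all genes these changes were 0.59 and 0.71, beside 0.50 and 0.57 on the deposited scale. With upper-quartile scaling it was called in EmptyBAL (0.78, 0.0471) and in NoBAL (-0.81, 0.0458).

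THY1 (chromosome 9, 46607022 to 46612691) encodes CD90, a surface protein of portal fibroblasts and also of T cells and some endothelial cells. Its levels stood at 17.3 and 16.7 FPKM in hiHepD8, 5.13 in hiHepD4, 21.1 and 8.62 in EmptyBAL, 11.6 and 12.1 in NoBAL, and 25.0, 25.4 and 23.0 in Control. Control held the 3 highest values of the 10. It fell in NoBAL against Control (-0.98 ± 0.31 SE, limma adjusted p = 0.0308), a call lost without any 1 Control, NoBAL or hiHepD8 library (0.054 to 0.111), without the filter on low values (0.0631) and with rescaled libraries (-0.65, 0.134). The changes of -0.50 ± 0.31 SE in hiHepD8 (0.259) and -0.80 ± 0.31 SE in EmptyBAL (0.0584) did not pass, and rescaling each library to the same summed FPKM turned that of hiHepD8 to 0.05. In hiHepD8 against NoBAL the change of THY1 was 0.49 (limma adjusted p = 0.268). Without EmptyBAL replicate 1 the change was -1.40 in EmptyBAL against Control, -0.42 in EmptyBAL against NoBAL and 0.91 in hiHepD8 against EmptyBAL. Without replicate 2 it was 0.78 in EmptyBAL against NoBAL.

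DCN (chromosome 5, 91678601 to 91713925) encodes decorin, a small proteoglycan of the matrix that binds collagen fibrils. It reached 75.6 and 77.1 FPKM in hiHepD8, 4.33 in hiHepD4, 39.4 and 30.4 in EmptyBAL, 32.1 and 6.32 in NoBAL, and 8.40, 9.01 and 8.64 in Control. Both hiHepD8 libraries were above all others, the EmptyBAL libraries were above Control, and the NoBAL libraries fell on either side of it. DCN rose in hiHepD8 against Control (2.998 ± 0.53 SE, limma adjusted p = 0.00423) and NoBAL (2.31 ± 0.58 SE, 0.0131), and in EmptyBAL against Control (1.88 ± 0.53 SE, 0.0185). The first of these held without each single library (highest adjusted p = 0.0371). The second was lost without either hiHepD8 library (0.0621 and 0.0635) and was 1.22 without NoBAL replicate 2, and the third was lost without Control replicate 1 (0.0505) or EmptyBAL replicate 1 (0.0841). In NoBAL against Control the change was 0.69 ± 0.53 SE (limma adjusted p = 0.311), and 1.77 without replicate 2 but -0.40 without replicate 1. The change of 1.12 between hiHepD8 and EmptyBAL did not pass (adjusted p = 0.16). That of EmptyBAL against NoBAL, 1.19, did not pass either (0.142), and was 2.28 without NoBAL replicate 1. It was called with rescaled libraries (1.69, adjusted p = 0.029). Relative to the median of all genes it was then 1.48, beside 1.34 on the deposited scale.

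**Figure D2:**
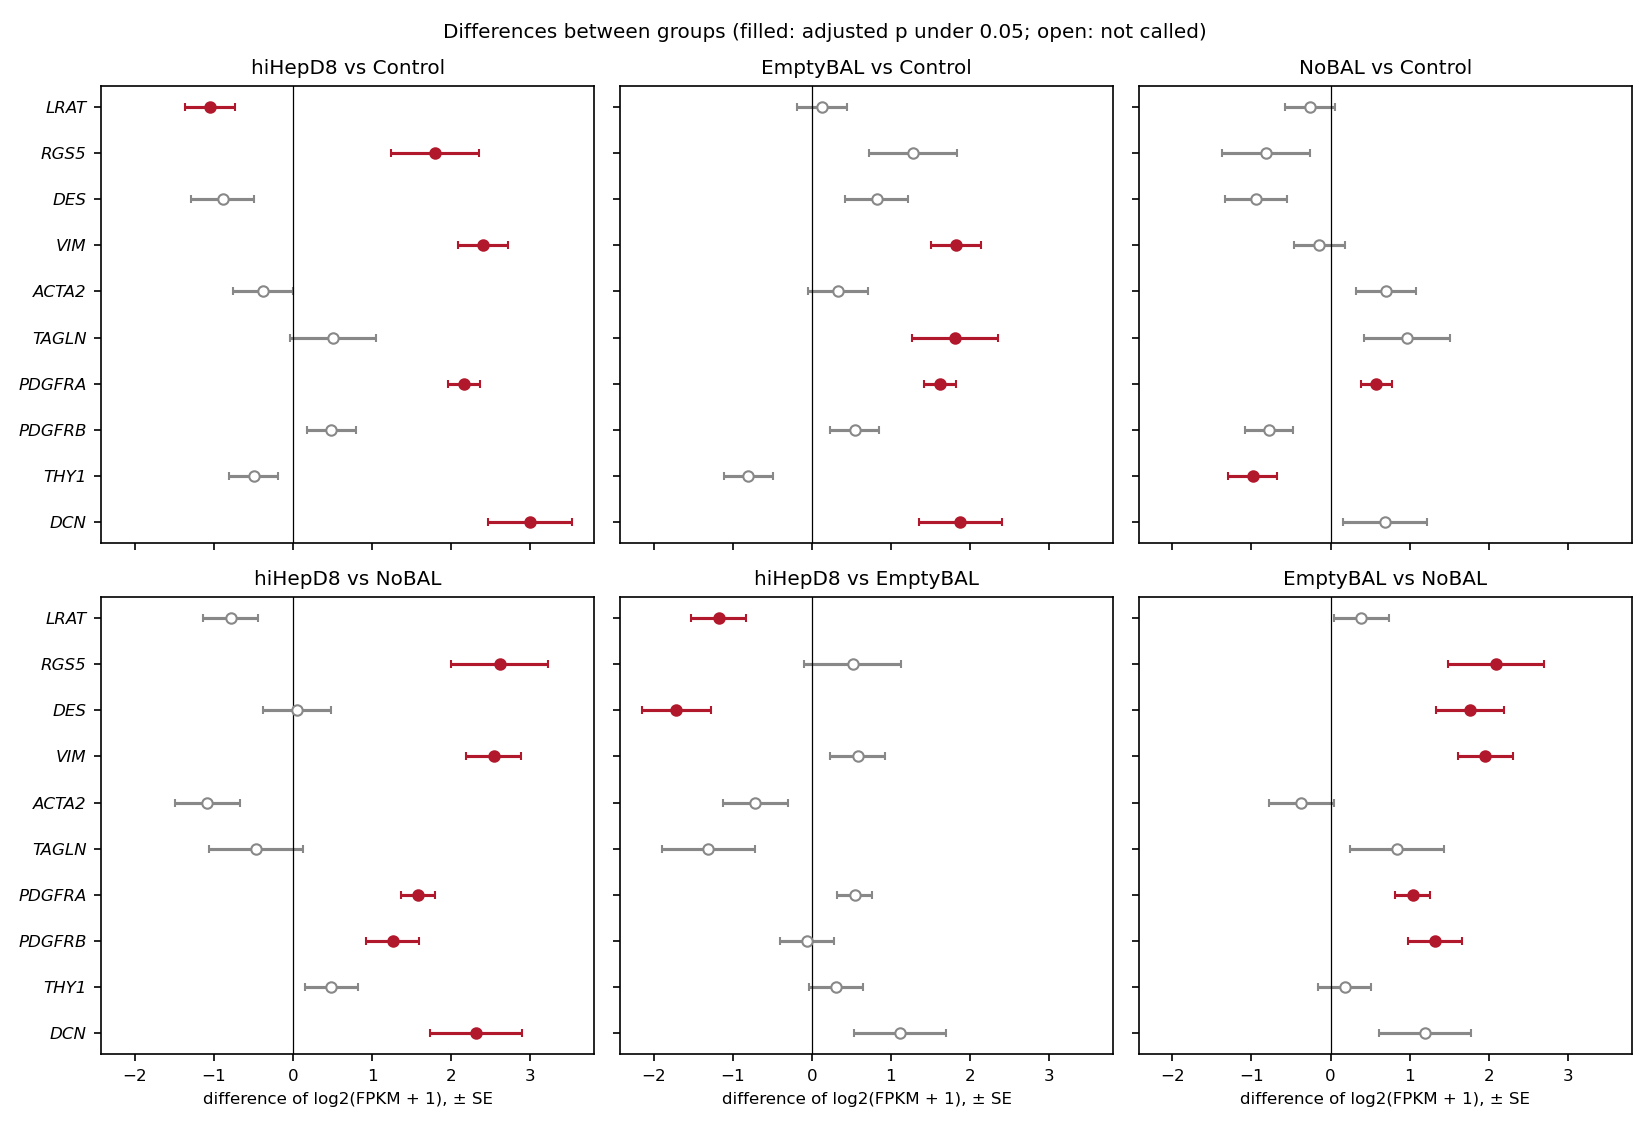
Differences of log2(FPKM + 1) between groups for the 10 markers in the 6 tested comparisons, with the first-named group minus the second and bars of 1 SE; filled points had a limma adjusted p under 0.05. VIM and PDGFRA are called higher in hiHepD8 and in EmptyBAL against both Control and NoBAL, and ACTA2 is called in none on this scale, though rescaled libraries gave calls against Control in EmptyBAL and NoBAL.

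The design set livers in failure against normal liver, and in NoBAL against Control 2 of the 10 markers were called, PDGFRA higher and THY1 lower, against 49.4% of all genes tested (25.2% called higher and 24.2% lower). Their median log2 change was -0.20, beside 0.04 for all genes. Neither call held without each single library. With every library rescaled to the same summed FPKM, 3 were called higher (ACTA2, TAGLN and PDGFRA) and 0 lower. Of all genes, 3761 were then called higher and 1882 lower. Without the filter on low values limma called 0 markers, with 3 at an unadjusted p under 0.05. In EmptyBAL against Control 4 markers were called, all higher (VIM, TAGLN, PDGFRA and DCN), against 53.7% of all genes called either way and 24.4% called higher. The markers' median change was 1.05, beside -0.03 for all genes. The share of markers called either way was thus below that of all genes in both comparisons.

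Against Control, hiHepD8 had 5 of 10 markers called, against 32.2% of all genes. The 4 higher ones were RGS5, VIM, PDGFRA and DCN, where 15.1% of all genes were called higher, and the lower one was LRAT, where 17.1% of all genes were called lower. In all 10 markers the hiHepD8 libraries did not overlap the Control libraries, 6 lying above and 4 below, which was so for 80.0% of all genes. The markers' median change was 0.49, beside -0.02 for all genes. VIM, PDGFRA and DCN were called without each single library, while LRAT and RGS5 were not.

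The effect of treatment was posed as hiHepD8 against NoBAL, where 5 of 10 markers were called, all higher, against 47.3% of all genes called either way and 22.5% called higher. These were RGS5, VIM, PDGFRA, PDGFRB and DCN, and the median over the 10 was 0.87, beside -0.03 for all genes. EmptyBAL against NoBAL also had 5 called higher (RGS5, DES, VIM, PDGFRA and PDGFRB), against 34.0% of all genes called either way and 12.6% called higher, with a median of 1.12, beside -0.14. Both comparisons share the NoBAL libraries. In hiHepD8 against EmptyBAL, the comparison of the device with cells and the device without, 2 of 10 were called, LRAT and DES, both lower, against 40.2% of all genes called either way and 17.6% called lower. The median there was 0.12, beside 0.05 for all genes, and the 2 groups also differed by day.

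The mean log2(FPKM + 1) of the quiescent pair less that of the activated 8, each set to 0 at the Control mean, gave -0.45 and -0.49 in the hiHepD8 libraries. It was 0.72 in hiHepD4, -0.30 and -0.29 in EmptyBAL, -1.22 and 0.12 in NoBAL, and -0.00, -0.03 and 0.03 in Control. All hiHepD8 and EmptyBAL libraries were below Control, hiHepD4 was above it, and the NoBAL libraries fell on either side. No test was run on this score. It depends on the constant added before the logarithm: with 0.1 in place of 1 it was -1.04 and -1.26 in hiHepD8, 0.311 in hiHepD4, -0.20 and -0.29 in EmptyBAL, and -2.02 and 0.12 in NoBAL. The activated mean alone was 0.83 and 0.86 in hiHepD8, -1.42 in hiHepD4, 1.57 and 0.43 in EmptyBAL, and 0.23 and -0.21 in NoBAL. With LRAT alone in place of the quiescent pair, the score in hiHepD8 was -1.83 and -1.96.

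Ratios between markers within a library do not depend on how the library was scaled. VIM was 3.85 and 3.79 times ACTA2 in hiHepD8, 0.804 times in hiHepD4, 1.43 and 1.69 times in EmptyBAL, 0.266 and 0.356 times in NoBAL, and 0.554 ± 0.043 times in Control (SD, n = 3). The hiHepD8, hiHepD4 and EmptyBAL libraries were thus above Control in this ratio, and NoBAL below it. PDGFRA over PDGFRB was 0.217 in both hiHepD8 libraries, 0.161 in hiHepD4, 0.117 and 0.159 in EmptyBAL, 0.140 and 0.150 in NoBAL, and 0.0467 ± 0.0068 in Control (SD, n = 3). Every library outside Control was above every Control library here. DCN over ACTA2 was 0.455 and 0.457 in hiHepD8 and 0.0398 ± 0.0028 in Control, and DES over VIM was 0.0113 and 0.0123 in hiHepD8 and 0.123 ± 0.004 in Control (SD, n = 3). TAGLN was 1.11 and 1.12 times ACTA2 in hiHepD8, 0.979 times in hiHepD4, 2.11 and 1.34 times in EmptyBAL, 0.864 and 0.607 times in NoBAL, and 0.602 ± 0.028 times in Control (SD, n = 3). These ratios were chosen after the values were seen and were not tested.

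**Figure D3:**
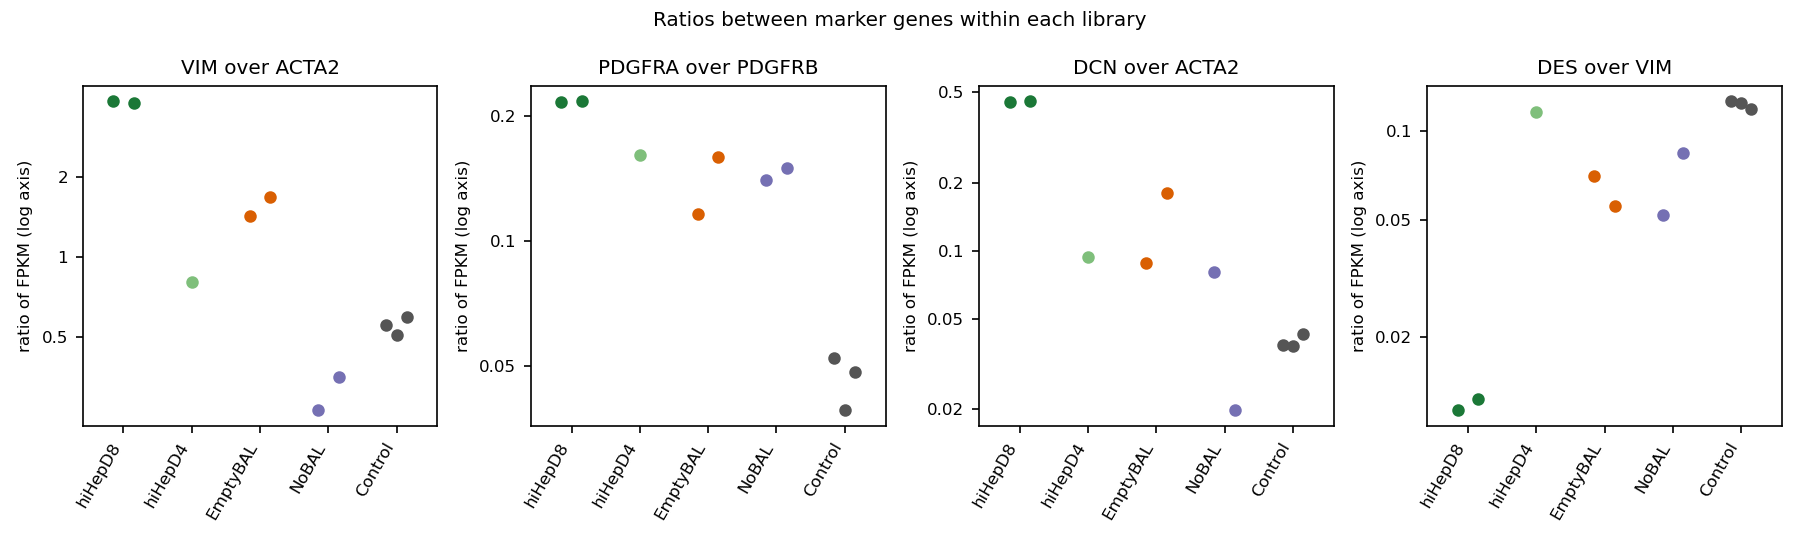
Ratios of FPKM between pairs of markers within each library (log axes), with groups from left to right as hiHepD8, hiHepD4, EmptyBAL, NoBAL and Control and a point for each library. The hiHepD8 libraries are highest in VIM over ACTA2, PDGFRA over PDGFRB and DCN over ACTA2, and lowest in DES over VIM.

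The hiHepD4 library stood low in nearly all markers. It was the lowest of the 10 libraries in 7 of them (DES, VIM, ACTA2, TAGLN, PDGFRB, THY1 and DCN), as it was in 8.1% of all genes tested. It was below every Control library in 9 of 10 (41.4% of all genes) and at least 2-fold below the Control mean in 8 (17.9% of all genes). ACTA2 and THY1 were at 0.211 and 0.21 of their Control means, VIM at 0.307 and DCN at 0.499. PDGFRA, at 1.13 times the Control mean, was the exception. The hiHepD8 means of VIM and DCN were 17.3 and 17.6 times the hiHepD4 levels. With a single library on day 4 there was no test, and the spread between day 4 livers is unknown.

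Other genes of stellate cells did not follow a single direction. Counts in this and the following lists stand beside the shares of all genes called either way. Against Control these were 32.2% in hiHepD8, 53.7% in EmptyBAL and 49.4% in NoBAL. They were 47.3% for hiHepD8 against NoBAL, 40.2% for hiHepD8 against EmptyBAL and 34.0% for EmptyBAL against NoBAL. Of 18 measured genes, 5 rose and 3 fell in hiHepD8 against Control, with a median change of 0.05. NGFR, a neurotrophin receptor of stellate cells, averaged 1.09 ± 0.09 FPKM in hiHepD8 and 32.5 ± 0.8 in Control (SD, n = 2 and 3; log2 change -4.00 ± 0.50 SE, limma adjusted p = 0.000905). HAND2 averaged 54.3 ± 1.8 in hiHepD8 and 6.21 ± 1.36 in Control (2.96 ± 0.59 SE, 0.00732), and TCF21, like HAND2 a transcription factor of stellate cells, 9.92 ± 1.72 in hiHepD8 and 1.81 ± 0.57 in Control (1.97 ± 0.27 SE, 0.00124). In NoBAL against Control 1 rose and 8 fell, with a median of -0.81. The largest falls there were those of COLEC10 (-2.27), COLEC11 (-2.02), both collectins secreted by stellate cells, and NGFR (-1.53). In EmptyBAL 7 rose and 3 fell against Control, among them HAND2 (2.17) and PTH1R (1.71). EmptyBAL against NoBAL had 11 higher and 0 lower of 18 at this adjusted p, led by PTH1R (2.57) and VIPR1 (2.13). Against NoBAL, hiHepD8 had 7 higher and 2 lower, led by TCF21 (2.53), NGFR (-2.47) and HAND2 (2.40), and against EmptyBAL 2 higher and 5 lower, led by NGFR (-2.47), ECM1 (-2.16) and VIPR1 (-1.81).

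Of 18 tested genes of vitamin A handling, the pathway of LRAT, 4 rose and 4 fell in hiHepD8 against Control, with a median of -0.23. The largest changes were falls. CYP26A1, which breaks down retinoic acid, averaged 0.273 ± 0.232 FPKM in hiHepD8 and 10.2 ± 0.7 in Control (SD, n = 2 and 3; -3.15 ± 0.26 SE, limma adjusted p = 0.00013). RDH16, a retinol dehydrogenase (-2.35), and DGAT1, which can also esterify retinol (-1.76), followed. In NoBAL against Control CYP26A1 (-3.23), DHRS3 (-2.50) and RDH16 (-2.40) changed most, with 2 higher and 5 lower of the list. In EmptyBAL against Control RDH16 (-4.34), CYP26A1 (-2.94) and RBP4 (-2.78) did, with 5 higher and 7 lower. The 3 comparisons share the Control libraries. DHRS3, which turns retinal back to retinol, was higher in hiHepD8 than in NoBAL (2.92; 3 higher and 2 lower of the list) and in EmptyBAL (2.03; 4 higher and 0 lower). EmptyBAL against NoBAL had 4 higher and 2 lower. Most of these enzymes are also made by hepatocytes.

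Genes of portal fibroblasts were mostly higher in hiHepD8. Of 15 tested, 10 rose and 1 fell against Control, with a median of 1.33, beside -0.02 for all genes. EFEMP1, a fibulin, averaged 26.4 ± 0.6 FPKM in hiHepD8 and 1.17 ± 0.31 in Control (SD, n = 2 and 3; 3.67 ± 0.28 SE, limma adjusted p = 0.000109), and CD34 (2.18) and the proteoglycan BGN (2.05) followed. Against NoBAL 11 were higher and 0 lower, led by EFEMP1 (2.58), PI16 (2.05) and ELN, elastin (1.92). Against EmptyBAL 6 were higher and 1 lower, led by ELN (2.24), EFEMP1 (1.88) and PI16 (1.81). In EmptyBAL 6 rose and 2 fell against Control, with a median of 0.14, and 3 were higher than in NoBAL and 0 lower. In NoBAL 2 rose and 2 fell against Control.

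More matrix genes of myofibroblasts rose than fell in each group tested against Control. Of all genes, 15.1% were called higher in hiHepD8, 24.4% in EmptyBAL and 25.2% in NoBAL. In hiHepD8, 9 of 16 rose and 3 fell, led by LOX, which crosslinks collagen (2.70 ± 0.17 SE, limma adjusted p = 4.83e-05), FAP (2.56) and COL1A1 (2.53). In EmptyBAL, 10 rose and 3 fell, led by TIMP1, an inhibitor of matrix proteases (5.31), FN1, fibronectin, which hepatocytes also secrete (-3.43), and FAP (2.96). In NoBAL, 7 rose and 5 fell, led by TIMP1 (3.20), COL1A1 (2.99) and COL1A2 (1.74). COL1A1 averaged 179 ± 1 FPKM in hiHepD8, 258 ± 104 in NoBAL and 30.3 ± 0.9 in Control (SD, n = 2, 2 and 3). COL1A1 was thus called in NoBAL, where VIM and ACTA2 were not. Against NoBAL, hiHepD8 had 5 higher and 2 lower, among them THBS2 (2.505), POSTN (2.22) and TIMP1 (-2.56), and against EmptyBAL 5 higher and 3 lower, led by TIMP1 (-4.67). EmptyBAL against NoBAL had 4 higher and 1 lower.

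Contractile and pericyte genes were also followed. Of 15 contractile genes, 4 rose and 1 fell in hiHepD8 against Control, with a median of -0.07: CNN3, a calponin (2.08), LMOD1 (1.69) and MYH11, smooth muscle myosin (1.42), rose most. In EmptyBAL 6 rose and 2 fell, led by TPM2, a tropomyosin (2.39), and in NoBAL 2 rose and 4 fell, led by SRF, a transcription factor of muscle genes (-1.49). Of 10 pericyte genes, 5 rose and 2 fell in hiHepD8 against Control, with a median of 0.66. RGS4, a relative of RGS5, fell (-2.56 ± 0.76 SE, limma adjusted p = 0.037), while COX4I2 (2.29) and ANGPT2 (1.97) rose. Against NoBAL 7 pericyte genes were higher in hiHepD8 and 0 lower, led by NOTCH3 (1.95 ± 0.16 SE, 9.11e-05). RGS4 averaged 2.02 ± 0.51 FPKM in hiHepD8 and 16.7 ± 1.2 in Control (SD, n = 2 and 3), so RGS4 and RGS5 went opposite ways. In EmptyBAL 3 pericyte genes rose and 1 fell against Control, and in NoBAL 1 rose and 4 fell.

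**Figure D4:**
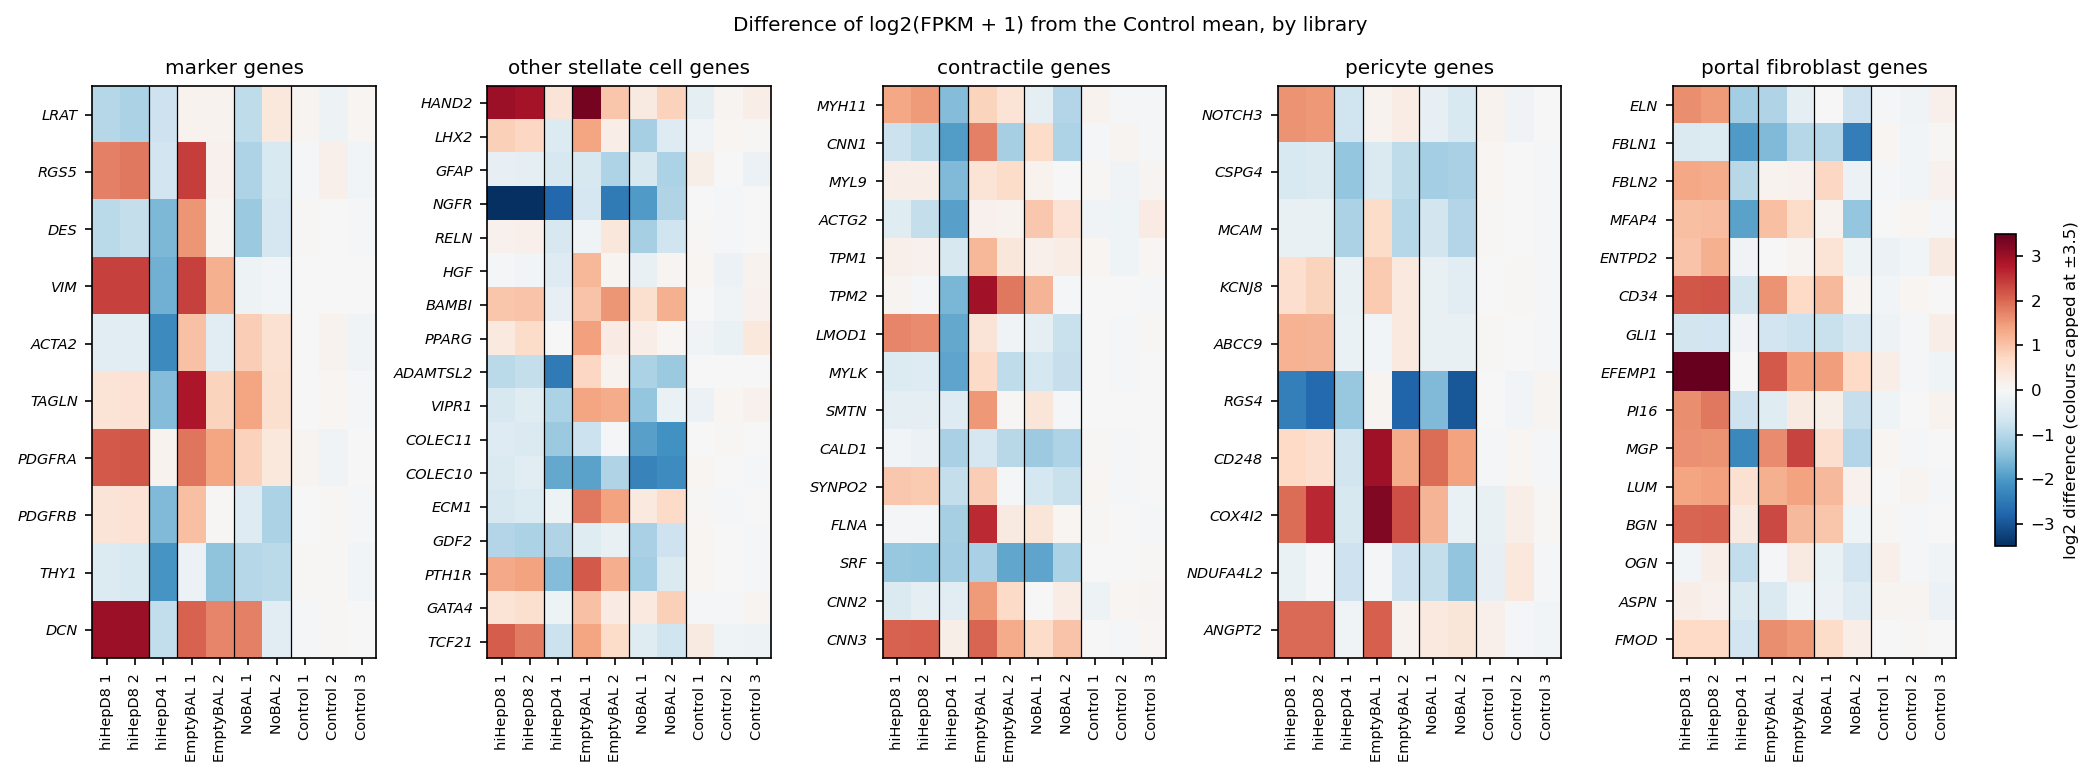
Difference of log2(FPKM + 1) from the Control mean in each library (columns, hiHepD8 on the left to Control on the right) for the 10 markers and for the reported genes of 4 related lists; red is above and blue below the Control mean, with colours capped at 3.5 either way. The portal fibroblast genes are mostly red in both hiHepD8 libraries, and the hiHepD4 column is mostly blue in all panels.

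The ligands of both receptors were tested too. Of 4 PDGF genes, 2 rose and 0 fell in hiHepD8 against Control: PDGFD (1.06 ± 0.20 SE, limma adjusted p = 0.00523) and PDGFA (0.76 ± 0.21 SE, 0.0276). PDGFA and PDGFD also rose in EmptyBAL (0.98 and 1.04), with PDGFC falling (-1.03), and in NoBAL PDGFA rose (1.04) while PDGFB (-1.28) and PDGFC (-0.96) fell. Of 19 genes of TGF-beta signalling, 7 rose and 2 fell in hiHepD8 against Control, 8 rose and 4 fell in EmptyBAL, and 2 rose and 6 fell in NoBAL. The latent TGF-beta binding proteins LTBP1 and LTBP3, which hold the growth factor in the matrix, rose in hiHepD8 (2.32 and 2.08), and INHBA, a subunit of activin, fell (-3.53). LTBP3 averaged 25.8 ± 1.3 FPKM in hiHepD8, 8.58 ± 0.75 in EmptyBAL, 1.85 ± 1.08 in NoBAL and 5.32 ± 0.25 in Control (SD, n = 2, 2, 2 and 3).

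Each marker was set beside all named genes averaging 5 FPKM or more, to find the 3 whose log2(FPKM + 1), centred over the 10 libraries, differed least from its own. The measure is the root mean square difference, and the libraries share their groups, so it is a description. DES was closest to TRIM47 (0.147), TGFB1 (0.264) and DOK2 (0.273), and THY1 to FLT4 (0.18), the VEGF receptor of lymphatic and sinusoidal endothelium, LIMS2 (0.207) and PLAT (0.248). PDGFRA was closest to CNN3 (0.219), DKK3 (0.241) and BGN (0.249). For PDGFRB the nearest genes were TCEA2 (0.242), C1QTNF1 (0.252) and SLC12A9 (0.258), and for LRAT RAB8B (0.273), MAPRE1 (0.28) and PTDSS1 (0.287). The nearest to ACTA2 were SERHL2 (0.291), ACTG2 (0.397), the enteric smooth muscle actin, and REX1BD (0.411), and to TAGLN TGFB1I1 (0.323), SMAD6 (0.339) and CD248 (0.34). VIM and DCN shared ARHGEF25 (0.379 and 0.473), with LOXL1 (0.425) and AEBP1 (0.44) also near VIM and GPIHBP1 (0.448) and CPZ (0.469) near DCN. RGS5 was near TEAD2 (0.381), RASL12 (0.433) and CTBP2 (0.438). Among the markers themselves the closest pairs were PDGFRB with THY1 (0.555), RGS5 with VIM (0.572) and ACTA2 with TAGLN (0.58), and the farthest was LRAT with DCN (1.70).

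Markers of other cells that carry VIM or THY1 also varied between the groups. Summed over 12 endothelial genes, FPKM were 306 and 307 in hiHepD8, 337 in hiHepD4, 996 and 497 in EmptyBAL, 265 and 264 in NoBAL, and 557 to 605 in Control. Summed over 13 macrophage genes they were 882 and 888 in hiHepD8, 1104 in hiHepD4, 1041 and 1291 in EmptyBAL, 469 and 246 in NoBAL, and 1119 to 1225 in Control. Both sums were below Control in the hiHepD8 libraries. In EmptyBAL replicate 1 the endothelial sum was above Control and the macrophage sum below it, and in replicate 2 the reverse held. The relation of VIM to these sums, or to the genes in them, was not tested. The sums are carried by abundant genes, and the median change of the endothelial genes in hiHepD8 against Control was 0.53 and that of the macrophage genes -0.40. VWF, an endothelial gene, rose there (2.90 ± 0.48 SE, limma adjusted p = 0.00312) and so did the macrophage gene CD163 (1.72 ± 0.16 SE, 0.000255). Counts of endothelial genes in hiHepD8 against Control were 2 higher and 2 lower of 12. Those of macrophage genes were 3 higher and 1 lower of 13, with LYZ listed at 0 in both hiHepD8 and both EmptyBAL libraries. Macrophage genes had 7 higher and 1 lower in EmptyBAL against Control (median 1.46) and in hiHepD8 against NoBAL (1.41). They had 11 higher and 0 lower in EmptyBAL against NoBAL (2.61), and 1 higher and 7 lower in hiHepD8 against EmptyBAL (-0.94). Endothelial genes had 4 higher and 1 lower in EmptyBAL against Control (0.53). Against NoBAL they had 3 higher and 0 lower both in hiHepD8 (0.45) and in EmptyBAL (0.58). The 12 T and NK cell genes summed to 25.5 and 25.4 in hiHepD8, 19.3 in hiHepD4, 79.9 and 51.4 in EmptyBAL, 11.7 in both NoBAL libraries, and 29.3 to 34.0 in Control. Of 9 tested, 6 fell and 0 rose in hiHepD8 against Control, 2 fell and 2 rose in EmptyBAL, and 8 fell and 0 rose in NoBAL. The median change of the tested T and NK cell genes in EmptyBAL against Control was -0.004. THY1 was below every Control library in all 3 groups, and its relation to these genes was not tested.

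The 6 neutrophil genes summed to 1.67 and 2.21 in hiHepD8, 66.1 in hiHepD4, 628 and 107 in EmptyBAL, 238 and 28.3 in NoBAL, and 1.07 to 2.29 in Control, with S100A8 listed at 0 in every Control library. Their sums were highest in the EmptyBAL and NoBAL replicates 1, which had the higher value of their pair in 9 of 10 markers in EmptyBAL, LRAT being the exception, and in 5 of 10 in NoBAL (TAGLN, ACTA2, PDGFRA, PDGFRB and DCN). The 16 cell cycle genes, made by any dividing cell, summed to 13.2 and 12.3 in hiHepD8, 253 in hiHepD4, 373 and 372 in EmptyBAL, 701 and 546 in NoBAL, and 17.0 to 20.1 in Control. Hepatocyte genes, 12 in all, summed to 29150 and 29019 in hiHepD8, 47845 in hiHepD4, 4115 and 8731 in EmptyBAL, 27987 and 18131 in NoBAL, and 96643 to 99553 in Control. Since FPKM are scaled to the fragments of a library, a fall of these abundant transcripts can raise the values of others. The median change of all genes against Control was -0.02 in hiHepD8, -0.03 in EmptyBAL and 0.04 in NoBAL as deposited. With every library rescaled to the same summed FPKM it was 0.46, 0.65 and 0.33. The part of this in the marker changes was not tested. The 5 mesothelial genes summed to 89.1 and 94.2 in hiHepD8, 904 in hiHepD4, 182 and 437 in EmptyBAL, 759 and 466 in NoBAL, and 371 to 380 in Control. Of 4 tested, 3 rose and 1 fell in hiHepD8 against Control. KRT18, a keratin that hepatocytes also make and which held most of the Control sum, fell (-2.48 ± 0.47 SE, limma adjusted p = 0.00615), while PDPN (1.87 ± 0.24 SE, 0.00108) and WT1 (1.71 ± 0.31 SE, 0.00443) were among those that rose, and CALB2 was listed at 0 in all 10 libraries. WT1 and PDPN are also made by some fibroblasts. The part of other cell types and of cell division in the marker results was not tested.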

How the data were processed

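Per the labels' protocols, Trizol was used to extract total RNA from liver, and TruSeq libraries were read from both ends on a HiSeq. The authors deposited 1 table of FPKM, and HISAT2, Cufflinks and HTSeq are listed without roles in the submitters' processing notes, beside a pig build (Sscrofa11.1) and a mouse build (mm10). Summed FPKM were 439925 to 829970 per library. The most common ratio of low values held for 66 of 1839 genes between Control replicates 1 and 3, so whole fragments could not be recovered, the depth is unknown and no counting intervals are given. FPKM were tested as log2(FPKM + 1), which understates changes of low genes, with limma 3.58.1 in R 4.3.3 (two-sided, mean-variance trend, 5 group means over 10 libraries, 5 residual degrees of freedom), tested on simulated data. The simulation gave every group the same spread, unlike these libraries, so it cannot show how the test behaves on them. Benjamini-Hochberg adjustment ran over 12180 genes, and adjusted p under 0.05 was called. Tables were made in Python 3.11.15 (pandas 2.3.3), and plots with matplotlib 3.10.9. Positions were looked up by symbol in an annotation of Sscrofa11.1. Use of strand is not stated, which leaves genes that overlap uncertain. From each list up to 3 called genes with the largest change per comparison were named. Among the genes so chosen, 1 is not reported here, though the lists' counts hold it. The markers and lists were chosen with earlier results of these data known. CALB2, LYZ and S100A8 were named after their values were seen. Alternatives were another pseudocount, no filter, 2 other scalings, no trend, a replicate block, each library left out, and groups averaged to 1 sample.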

Additional observations from a re-analysis of the deposited data

How the results depend on the processing

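Of 960 recalculations of the markers' changes, 801 kept direction and call, 93 lost the call, 51 gained one and 15 changed sign. Of 23 calls, 9 held without each single library: VIM and PDGFRA in hiHepD8 and EmptyBAL against both NoBAL and Control, and DCN in hiHepD8 against Control. With single libraries left out, the markers called numbered 3 to 7 for hiHepD8 against Control, 2 to 7 for hiHepD8 against NoBAL, 0 to 5 for hiHepD8 against EmptyBAL, 2 to 8 for EmptyBAL against Control, 4 to 7 for EmptyBAL against NoBAL and 0 to 7 for NoBAL against Control.

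In each range of markers called above, the highest count came from a fit without 1 EmptyBAL library, and calls gained there were not taken as results. The number of all genes called moved with the library left out too. Without 1 Control library it was 2619 to 2637 for hiHepD8 against Control (3 markers), beside 3923 with all libraries (5 markers). For NoBAL against Control it was 4629 to 4692 (0 markers), beside 6021 (2 markers). Without the filter on low FPKM limma called 3 markers for hiHepD8 against Control, 1 for hiHepD8 against EmptyBAL and 0 for NoBAL against Control. In the last of these, 3 had an unadjusted p under 0.05. The genes called numbered 4373, 5061 and 6011. With libraries rescaled to the same summed FPKM, 8 markers were called for EmptyBAL against Control, beside 7327 of the 12180 genes. Rescaling moved the median change of all genes by 0.479 for hiHepD8 against Control, 0.172 for hiHepD8 against NoBAL, -0.203 for hiHepD8 against EmptyBAL, 0.673 for EmptyBAL against Control, 0.356 for EmptyBAL against NoBAL and 0.29 for NoBAL against Control. Of the genes called, the share that was higher was 78.9% when rescaled, beside 46.9% as deposited, for hiHepD8 against Control, 58.7% beside 47.5% for hiHepD8 against NoBAL, 38.6% beside 56.2% for hiHepD8 against EmptyBAL, 77.4% beside 45.4% for EmptyBAL against Control, 84.6% beside 37.0% for EmptyBAL against NoBAL and 66.6% beside 51.0% for NoBAL against Control. Under upper-quartile scaling these shares were 62.0%, 60.1%, 54.0%, 57.0%, 63.4% and 48.6%, in the same order. Rescaling gave positive values for ACTA2 (0.192) and THY1 (0.051) in hiHepD8 against Control, ACTA2 in EmptyBAL against NoBAL (0.094) and VIM in NoBAL against Control (0.217), none of them called.

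Leaving out single libraries turned the sign of 11 changes that were not called. Their ranges were, for hiHepD8 against NoBAL, -0.302 to 0.404 in DES. For hiHepD8 against EmptyBAL they were -0.613 to 1.651 in RGS5, -0.557 to 0.433 in PDGFRB and -0.294 to 0.906 in THY1. For EmptyBAL against NoBAL they were -0.238 to 1.011 in LRAT, -1.066 to 0.326 in ACTA2, -0.186 to 1.868 in TAGLN and -0.42 to 0.78 in THY1. They were -0.363 to 1.029 in ACTA2 for EmptyBAL against Control, and -0.884 to 0.365 in LRAT and -0.402 to 1.774 in DCN for NoBAL against Control. Every end of these ranges came from leaving out an EmptyBAL or a NoBAL library.

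Deviations of same-numbered libraries correlated at -0.054 to 0.137, the highest being that of EmptyBAL with NoBAL. Control libraries, and hiHepD8 libraries, were nearly alike, so their deviations cannot show whether the replicate numbers pair the libraries. With a replicate block the markers called were 3 for hiHepD8 against Control, 1 for hiHepD8 against EmptyBAL, 3 for EmptyBAL against NoBAL and 0 for NoBAL against Control by limma, where 2 had an unadjusted p under 0.05. Over all genes the block gave 2341 calls for hiHepD8 against Control, beside 3923 without it, and 2502 for EmptyBAL against NoBAL, beside 4146. It gave 3792 for hiHepD8 against EmptyBAL, beside 4895, and 4386 for NoBAL against Control, beside 6021.

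With the Control and the hiHepD8 libraries each averaged to 1 sample, which assumes that these vary like the EmptyBAL and NoBAL libraries, 0 markers were called in all 6 comparisons, and the genes called numbered 17, 297, 33, 689, 0 and 413 in the order above. At an unadjusted p under 0.05 the genes were 1463, 2984, 2489, 3295, 2653 and 2827, and the markers 3, 3, 0, 2, 5 and 0.

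The quiescent less activated score was -0.472 in hiHepD8, 0.721 in hiHepD4 and -0.299 in EmptyBAL. It was -1.151, 0.311 and -0.245 with a pseudocount of 0.1, and -0.754, 0.669 and -0.424 with rescaling. Without VIM and THY1 it was -0.437, 0.571 and -0.464. Upper-quartile scaling gave -0.55 in hiHepD8 and -0.354 in EmptyBAL, and leaving out RGS5 gave -1.895 and -0.876. The cause of these differences was not tested.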
